A study of Mus musculus with 5 samples.

Results

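The short intronic bktRNAs are RNAs of under 40 nt that lie in introns of mouse genes and were recovered with the tagged protein 15.5K. They were chosen by 3 entries of the deposited list: an intronic class, a length below 40 nt, and a gene label that does not name a repeat element. The rule uses no abundance value, and 14 of the 43 listed RNAs met it. The study sequenced 5 RIP-PEN-seq libraries, small RNA libraries made from RNA that co-precipitated with an anti-FLAG antibody. All come from Hepa1-6 cells, a mouse hepatoma line, that stably overexpress FLAG-tagged 15.5K, and all form 1 group with replicate numbers 1 to 5. No input, unspecific antibody or parental line was analysed here, so the values are levels in the precipitate and not enrichments. Separate cultures are not stated in the labels, and the replicate spread given below may therefore be technical.

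The protein 15.5K, also called Snu13, binds kink turns, sharp bends in an RNA helix that contain a pair of sheared G-A base pairs. In box C/D snoRNAs, which guide methylation of ribose in other RNAs, the kink turn forms where box C near the 5′ end meets box D near the 3′ end. The name bktRNA stands for backward kink-turn RNA, in which the boxes come in the other order: box D first, then a short stretch that can pair with itself, then box C. Vertebrate snoRNAs are commonly released from introns of host genes, where 15.5K joins them at an early step of assembly.

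The sequences below show how little lies between and around the boxes. Capitals mark box D (CTGA) and the 6 nt core of box C (ATGATG or GTGATG). The 11 shown are those on which the values below turn, copied from the deposited list in DNA letters, 5′ to 3′, with mm10 positions.

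bktRNA2 (Khdrbs1, chr4:129717611-129717646, minus strand): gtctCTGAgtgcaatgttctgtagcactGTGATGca
bktRNA6 (Smco4, chr9:15501505-15501532, plus strand): gtgaCTGAcagagcctctgaATGATGac
bktRNA9 (Col8a1, chr16:57753935-57753967, minus strand): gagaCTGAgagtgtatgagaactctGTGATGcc
bktRNA10 (Rab3gap1, chr1:127888544-127888572, plus strand): ccagCTGAgccatctctggctGTGATGta
bktRNA12 (D3Ertd751e, chr3:41745326-41745357, plus strand): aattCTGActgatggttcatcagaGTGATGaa
bktRNA20 (Gm48138, chr13:96556513-96556544, plus strand): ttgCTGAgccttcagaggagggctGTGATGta
bktRNA27 (Aagab, chr9:63620433-63620467, plus strand): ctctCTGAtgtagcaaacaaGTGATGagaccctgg
bktRNA31 (Tle4, chr19:14555363-14555391, minus strand): ggtaCTGAacctcgtgtggttGTGATGta
bktRNA32 (Mtbp, chr15:55571655-55571692, plus strand): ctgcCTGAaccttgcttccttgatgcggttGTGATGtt
bktRNA35 (Plb1, chr5:32233273-32233302, plus strand): catCTGAtctcctgaagagGTGATGataaa
bktRNA43 (App, chr16:85158371-85158407, minus strand): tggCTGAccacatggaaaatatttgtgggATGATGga

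The 14 RNAs are 28 to 38 nt long, with a median of 32 nt. The shortest is bktRNA6 at 28 nt, and the longest are bktRNA43 at 37 nt and bktRNA32 at 38 nt. Just outside the limit lie bktRNA22 in B3gnt2 at 40 nt, with a mean of 0.191 RPM ± 0.303 (SD, n = 5), and bktRNA37 in Nfia at 43 nt, with 0.0464 RPM ± 0.0635 (SD, n = 5). Just inside it, bktRNA32 had 0.0708 RPM ± 0.103 and bktRNA43 had 0.0299 RPM ± 0.0433 (SD, n = 5). RPM, the unit of the deposited library values, is a read number scaled to a common library size.

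Box C varied in its last base, while box D was CTGA in every member. The full box C of a C/D snoRNA reads RTGATGA, where R is A or G. All 14 have its first 6 bases, and 6 have all 7: bktRNA6, bktRNA12, bktRNA24, bktRNA27, bktRNA30 and bktRNA35. In the other 8 the last base is T in bktRNA10, bktRNA20, bktRNA31 and bktRNA32, C in bktRNA2, bktRNA4 and bktRNA9, and G in bktRNA43. The first base is G in 10 members and A in 4 (bktRNA6, bktRNA24, bktRNA30 and bktRNA43). The 6 members with a full box C make up 42.9%, beside 73.3% (11 of 15) among the longer intronic RNAs with no repeat label. The share is 50% (2 of 4) among the repeat-labelled intronic RNAs under 40 nt and 72.4% (21 of 29) among all other listed RNAs. These differences were not tested. Every listed RNA carries both boxes at its deposited distances, which points to a choice by box, so the boxes themselves are no finding.

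The ends of most short RNAs sit at near-fixed distances from the boxes. In the 29 other listed RNAs the medians are those of the members, 4 nt before box D and 2 nt after the core of box C. There the distance before box D runs from 2 to 213 nt and that after box C from 1 to 6 nt. Box D begins after 4 nt in 11 members and after 3 nt in bktRNA20, bktRNA35 and bktRNA43. After the 6 nt core of box C, 2 nt follow in 12 members, 5 nt in bktRNA35 and 9 nt in bktRNA27, the longest 3′ tail in the set. Both distances at once, 4 nt before and 2 nt after, hold in 10 of the 14 members (71.4%), in 10 of the 15 longer intronic RNAs with no repeat label (66.7%) and in 15 of all 29 other listed RNAs (51.7%). The 4 nt before box D alone hold in 78.6% of the members and 82.8% of the other listed RNAs. These differences were not tested. With the ends so placed, the length of a member is set mainly by the 12 to 22 nt between the boxes, which have a median of 15.5 nt.

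Each member can form a short hairpin between its boxes. The stem was read as uninterrupted Watson-Crick pairs, from the base after box D against the base 1 nt before the core of box C and then inwards. It has 3 to 6 base pairs, with a median of 4. The longest, 6 pairs, belong to bktRNA4 and bktRNA12. In bktRNA12 the arms are CTGATG and CATCAG, so the left arm repeats the CTGA of box D. Stems of 5 pairs occur in bktRNA6, bktRNA30 and bktRNA43, stems of 4 pairs in bktRNA2, bktRNA9, bktRNA10 and bktRNA24, and stems of 3 pairs in the remaining 5. The deposited score equals the hydrogen bonds of this stem, with 2 counted for an A-U pair and 3 for a G-C pair, in all 14, so it is a measure of the sequence and not of the libraries. It runs from 7 in bktRNA27 and bktRNA35 to 16 in bktRNA4.

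The loops enclosed by these stems are 1 to 15 nt, with a median of 5.5 nt. Loop size is bound to the length that chose the members: the longer intronic RNAs have stems with the same median of 4 pairs and loops with a median of 30 nt. The widest loop is that of bktRNA32, 15 nt closed by 3 pairs, followed by the 11 nt loops of bktRNA2 and bktRNA43 and the 10 nt loop of bktRNA20. In bktRNA6 the 5 pairs leave a loop of 1 nt and in bktRNA30 they leave 2 nt, fewer than the 3 nt that a hairpin loop needs. With a loop of at least 3 nt required, each has a stem of 4 pairs, with loops of 3 nt and 4 nt. If G-U pairs are also counted, the stem of bktRNA20 grows from 3 to 6 pairs and its loop shrinks from 10 to 4 nt.

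The base between the stem and box C is T in 6 members: bktRNA2, bktRNA9, bktRNA10, bktRNA20, bktRNA31 and bktRNA32. By sequence it can pair there with the A that ends box D, which would lengthen the stem by 1 pair on the side of the boxes. The predicted folds described below contain that pair in 4 of these 6, bktRNA2, bktRNA9, bktRNA20 and bktRNA31. They lack it in bktRNA10 and bktRNA32. Whether the pair forms together with a kink turn was not tested. In the rest it is A in 4, G in 3 and C in bktRNA24. Among the 29 other listed RNAs it is T in 6, and the predicted fold contains that pair in 2.

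Predicted folds of the bare RNAs contained the boxed stem in 10 of the 14 members (71.4%), with RNAfold at 37 °C and loops of at least 3 nt. The share was 41.4% (12 of 29) in all other listed RNAs and 40% (6 of 15) in the longer intronic RNAs with no repeat label. It was 25% (1 of 4) in the repeat-labelled intronic RNAs under 40 nt. These differences were not tested, and length chose the members. Predicted minimum free energies run from -10.4 kcal/mol in bktRNA20 to -0.4 kcal/mol in bktRNA30, with a median of -5.7. In bktRNA4 the predicted energy is -9.5 kcal/mol and in bktRNA2 it is -8.5, and both folds hold the whole stem. The exceptions are bktRNA10, bktRNA12, bktRNA32 and bktRNA35. A fold made to keep the stem is less stable by 0.7 kcal/mol in bktRNA10 and in bktRNA32 and by 1.5 kcal/mol in bktRNA35. For bktRNA12, the member with one of the longest stems, the difference is 3.3 kcal/mol. The prediction knows nothing of bound protein or of the G-A pairs of a kink turn, so it describes the free RNA only.

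Some members resemble each other beyond the boxes. bktRNA10 and bktRNA20 share a run of 12 nt, GGCTGTGATGTA, which is the 3′ end of both, and both have CTGAGCC at the 5′ box. bktRNA31 and bktRNA32 share 11 nt, GGTTGTGATGT, and have the same stem arms, ACC and GGT. Over the 91 pairs of members the longest shared run had a median of 6 nt, a length that box C alone can give. No member shares a run of 20 nt with an annotated transcript of a gene other than its host. At 16 nt, bktRNA10 shares sequence with 21 other genes in sense and 37 in antisense, while the other 13 share with at most 3 in sense and 5 in antisense. Annotated transcripts cover little of the introns, where further copies were not looked for.

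The 14 members lie in 14 different genes on 10 chromosomes, 9 on the plus and 5 on the minus strand, and each on the strand of its host. The sources used here do not say whether strand entered the calling. The hosts are of many kinds. Khdrbs1 (bktRNA2) encodes the RNA-binding protein Sam68, Myo5b (bktRNA4) a motor of the myosin V class, and Col8a1 (bktRNA9) a collagen chain. Rab3gap1 (bktRNA10) encodes the catalytic subunit of a Rab3 GTPase-activating complex, Aagab (bktRNA27) a protein that binds adaptins, and Lyst (bktRNA30) a regulator of lysosomal trafficking. Nhej1 (bktRNA24) acts in the joining of DNA double-strand breaks, Tle4 (bktRNA31) encodes a Groucho-type corepressor, and Mtbp (bktRNA32) a protein that binds Mdm2. Plb1 (bktRNA35) encodes a phospholipase and App (bktRNA43) the amyloid precursor protein. Smco4 (bktRNA6) encodes a small membrane protein.

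The list's own gene labels go against the intronic class in 3 members. bktRNA9, bktRNA20 and bktRNA35 are classed as intronic, but their labels place them in exon 1 of a transcript of Col8a1, Gm48138 and Plb1. Each of these 3 sequences was found whole in a GENCODE M21 transcript of that gene, and none of the other 11 was found in any transcript. bktRNA9 and bktRNA35 also lie in intron 1 of another transcript of the same gene. bktRNA20 lies in intron 2 of Col4a3bp, which encodes a ceramide transfer protein, and Gm48138 is a provisional gene of the class TEC on the same strand. For these 3, pieces of the exonic transcript and an intronic RNA cannot be told apart from the values.

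For the 11 labelled with an intron, introns were counted in GENCODE M21 along the transcript that the label names. The intron number was the deposited one in each, which checks the reading of the labels and holds for that transcript only. It ranged from intron 1, for bktRNA4, bktRNA6 and bktRNA43, to intron 19 of Lyst for bktRNA30. These introns are 813 to 76396 nt long, with a median of 16073 nt. The shortest is that of Lyst, at 813 nt, where bktRNA30 has 618 nt of intron before it and 166 nt after it. bktRNA32 lies in an intron of 1506 nt, 265 nt after its start, and bktRNA12 in one of 1735 nt, 513 nt after its start. bktRNA2 lies near the middle of the 2896 nt intron 8 of Khdrbs1 (chr4:129716187-129719082), with 1436 nt before and 1424 nt after it. bktRNA24 lies in an intron of 76396 nt in Nhej1, with 22565 nt before it. bktRNA10 lies 583 nt before the 3′ splice site of its 15000 nt intron, at 96.1% of the way along. The median position was 29.5% of the way along the intron. The nearest annotated snoRNA, scaRNA, snRNA or miRNA on either strand was 10442 to 340937 nt away, so none of the 14 overlaps one.

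The implied depths of the libraries were unlike, and library 5 stood apart. Where the low RPM values are whole multiples of a step and 1 step is read as 1 read, libraries 1, 3, 4 and 5 hold 34200000, 31700000, 30700000 and 17400000 reads. For library 2 no step made 75% of the values whole, so no depth is given. Of the 32 member values above 0 in the 4 libraries with a step, 28 came out whole within 0.05 steps. The other 4 were bktRNA2 and bktRNA6 in library 4, bktRNA9 in library 1 and bktRNA24 in library 3. The lowest value above 0 in each of these libraries was taken as 2 steps, the fewest that made 75% of values whole. Taken as 4 steps, it made 86.7%, 80.6%, 76% and 93.8% whole in libraries 1, 3, 4 and 5. The step, and with it the depth, is therefore not settled. A value listed at 0 may not be a count of 0, and no upper limit is given for it. Results that rest on library 5 are given with and without it.

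Together the 14 RNAs had 12.4, 15.3, 16.7 and 13.2 RPM in libraries 1 to 4, and library 5 gave 2.36 RPM. The mean was 12.0 RPM ± 5.64 (SD, n = 5), and 14.4 RPM ± 1.97 (SD, n = 4) without library 5. They held 17.6%, 19.1%, 17.2%, 13.8% and 3.80% of the RPM of all listed RNAs, where bktRNA1, a longer intronic RNA, takes the most. Without bktRNA1 in the total, the members held 51.8%, 62.1%, 51.8% and 53.4% in libraries 1 to 4 and 10.8% in library 5. Thus libraries 1 to 4 lie close together in the members' share and library 5 lies below each of them.

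bktRNA2 in Khdrbs1 was the most abundant member, at 5.29, 7.47, 9.86, 7.04 and 0 RPM in libraries 1 to 5, a mean of 5.93 ± 3.70 (SD, n = 5). It made up between 42.8% and 59.1% of the members' RPM in libraries 1 to 4. Its 4 values above 0 are higher than any value of another member, while in library 5 it is listed at 0. Without bktRNA2 the members summed to 6.05 RPM ± 2.15 (SD, n = 5), so their total rests on this RNA.

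bktRNA4 in Myo5b followed with 2.25, 2.07, 3.31, 2.67 and 0 RPM, a mean of 2.06 RPM ± 1.25 (SD, n = 5). It was below bktRNA2 in libraries 1 to 4. Both are highest in library 3 and at 0 in library 5. bktRNA4 carries the highest score, 16, and a 4 nt loop. It lies on chromosome 18 at 74452546 to 74452578, plus strand, in intron 1 of its transcript, and its sequence is not shown.

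bktRNA6 in Smco4 had 1.93, 2.26, 0, 1.75 and 0.634 RPM, a mean of 1.31 ± 0.955 (SD, n = 5). It is at 0 in library 3, where bktRNA2 and bktRNA4 have their highest values, and above 0 in library 5, where those 2 are at 0. bktRNA4 was higher than bktRNA6 in 3 libraries and lower in 2, so their order does not hold in each library.

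bktRNA9 in Col8a1 had 0.828, 1.24, 0.851, 0 and 0.634 RPM, and bktRNA10 in Rab3gap1 had 1.17, 1.42, 0, 0.683 and 0.115 RPM. Their means, 0.71 RPM ± 0.454 and 0.678 RPM ± 0.627 (SD, n = 5), differ by less than either spread, and bktRNA10 was the higher in 3 of 5 libraries. Per nucleotide of length these 2 change places, at 0.0215 and 0.0234 RPM per nt, while the other 12 keep their place in the order.

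bktRNA12 in D3Ertd751e was the only member above 0 in every library, at 0.380, 0.579, 0.567, 0.455 and 0.173 RPM. Its mean was 0.431 RPM ± 0.166 (SD, n = 5), and its spread was the smallest beside its mean. In steps these values are 13 in library 1, 18 in library 3, 14 in library 4 and 3 in library 5. This count of 1 becomes 3 without library 5, when bktRNA2 and bktRNA4 join it, to 3 without library 3, when bktRNA6 and bktRNA10 join it, and to 2 without library 4, when bktRNA9 joins it.

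The other 8 members (57.1% of the 14) are each above 0 in exactly 2 libraries, and none is above 0 in exactly 3. Of the 29 other listed RNAs, 12 (41.4%) are above 0 in exactly 2, 7 (24.1%) in exactly 3 and 4 (13.8%) in all 5. No listed RNA is above 0 in fewer than 2 libraries. These differences were not tested. bktRNA20 had 0.882 RPM in library 3 and 0.358 in library 4. bktRNA32 also appeared in libraries 3 and 4, at 0.126 and 0.228 RPM. bktRNA31 had 0.146 RPM in library 1 and 0.252 in library 3, and bktRNA35 had 0.0876 and 0.189 RPM in those same libraries. bktRNA30 appeared in libraries 1 and 2, at 0.292 and 0.110 RPM, and bktRNA43 in libraries 2 and 3, at 0.0551 and 0.0946 RPM. bktRNA24 and bktRNA27 had their second value in library 5. bktRNA24 had 0.542 RPM in library 3 and 0.230 in library 5, and bktRNA27 had 0.110 RPM in library 2 and 0.576 in library 5. In the libraries with a step, the values of these 8 are 3 to 28 steps. Several thus rest on a handful of reads if 1 step is 1 read. The sources used here do not say whether an RNA had to appear in 2 libraries to be listed.

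Across the 14 members, the Pearson correlation of log2(RPM + 1) between libraries was 0.732 to 0.986 for the 6 pairs among libraries 1 to 4. For the 4 pairs with library 5 it was -0.250 to 0.153. Spearman correlations ranged from 0.0819 to 0.870 and from -0.246 to 0.333. Pearson values give the most abundant members, bktRNA2 and bktRNA4, more weight than ranks do. These correlations are across RNAs of the same libraries and describe the list.

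Mean abundance was set beside the measures of the stem. Spearman's rho between mean RPM and the score was 0.480 over the 14 members, and 0.588 without library 5. It was 0.419 with stem length, -0.274 with loop size and -0.0973 with total length. Without library 5 these were 0.492, -0.249 and -0.201. All members share the same 5 libraries, and with 14 of them these values are a description with no test. bktRNA43 has a score of 13 and the lowest mean of the 14, while bktRNA2 has a score of 11 and the highest.

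Set beside the other 29 listed RNAs, the short intronic RNAs differed in how often they were detected by less than the spread between the 5 libraries. In libraries 1 to 5, 9, 9, 10, 7 and 6 of the 14 members were above 0, which is 58.6% ± 11.7 (SD, n = 5). The other listed RNAs were above 0 in 61.4% ± 15.7 (SD, n = 5). Every listed RNA is above 0 in at least 2 libraries, so both shares have the same floor, which limits how far they can differ. The difference, members minus others, was -2.81 percentage points ± 7.83 (SD, n = 5), with members lower in 4 of 5 libraries (exact two-sided sign-flip permutation test over libraries, p = 0.375, adjusted p = 0.75 over 2 tests). With 5 libraries such a test cannot give a p below 0.063. Library 5 is the exception, where members were higher by 8.37 percentage points. Without it the difference was -5.60 percentage points, with members lower in each of the 4 libraries (exact permutation p = 0.125, the smallest that 4 libraries can give).

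In summed RPM, bktRNA1 left out, the other listed RNAs had 11.5, 9.36, 15.5, 11.5 and 19.4 RPM. The members were higher in libraries 1 to 4 and lower in library 5, with a mean difference of -1.48 RPM ± 8.94 (SD, n = 5; exact two-sided sign-flip permutation test, p = 1, adjusted p = 1). Without library 5 the mean difference was 2.41 RPM in favour of the members (exact permutation p = 0.125, again the smallest possible). Its sign therefore rests on that library, and also on which RNAs are left out. The other side was summed without its most abundant RNA, while the members kept theirs, bktRNA2. In libraries 1 to 4 the members were higher by 0.881, 5.95, 1.15 and 1.66 RPM. Each of these differences is smaller than the value of bktRNA2 in that library. With bktRNA2 also left out, the members would thus be lower in each of the 5 libraries, a comparison that was not tested. All these sums run over sets of unlike size, the 14 members against the 29 other listed RNAs without bktRNA1. Which sum is higher depends on set size too, and means per RNA were not compared library by library. By median the members had a mean of 0.201 RPM, beside 0.191 RPM for the 29 other listed RNAs. Among these others the median was 0.354 RPM for the 15 longer intronic RNAs with no repeat label. It was 0.143 RPM for the 7 intronic RNAs labelled as repeats and 0.0981 RPM for the 4 of those under 40 nt. The ranges of the members and of these intronic sets overlap, from 0.0299 to 5.93 RPM in the members and from 0.0306 to 55.7 RPM in the longer ones.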

How the data were processed

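RNA that co-precipitated with FLAG-15.5K was sequenced in 5 libraries of Hepa1-6 cells. The submitters' processing notes name build mm10 and the tools bedtools, STAR and cutadapt 2.8. The sources used here give neither their roles and settings nor the calling and counting of the RNAs. The deposited library values are in RPM, per the file headers. The deposited score has no stated definition. Deposited starts count from 0 and are given here 1-based.

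The list was read with Python 3.11.15, pandas 2.3.3 and numpy 2.4.6, tests used scipy 1.17.1, and folds ViennaRNA RNAfold 2.7.2. Introns and transcripts came from GENCODE M21, on the assembly of mm10. For the 3 members outside an intron of their labelled transcript, the shortest same-strand intron that holds them was taken. No filter on low values was used, and correlations used log2(RPM + 1). The stem reader and the sign-flip test were tested on simulated data. An RPM step was accepted where, with the lowest value as 1 to 4 steps, 75% of values were whole. In each library with a step, the lowest value was taken as 2 steps.

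Members given with all their values have a mean of 0.5 RPM or more, an extreme stem or loop, a box C variant, or a value above 0 in every library; bktRNA24 and bktRNA30 were added to complete the set. The members and rules were chosen with earlier results of these data known.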

Additional observations from a re-analysis of the deposited data

Results flagged for a closer look

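Of 17 sets of 5 library values (the 14 members, their sum, their share and their number above 0), 1 had an outlying library. The rule was Dixon's ratio, the gap to the nearest value over the range, above 0.71. Its nominal rate is about 1 set in 20. That rate is not made for sets with many values at 0 or sets built from each other. It therefore cannot say whether 1 flag exceeds chance. bktRNA27 in Aagab had 0.576 RPM in library 5, which is 10 steps, against 0 to 0.110 RPM in the other libraries.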

How the results depend on the processing

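Leaving out each library in turn gave 10.8 to 14.4 RPM for the members' sum, 13.1% to 16.9% for their share, 1 to 3 for the members above 0 in every library and 0.136 to 0.252 RPM for their median. It gave -5.60 to -0.493 percentage points for the difference in detection. For the difference in summed RPM it gave -3.34 to 2.41 RPM, and the sign turned only without library 5. A length limit of 36 nt leaves out bktRNA2 and gave a sum of 5.95 RPM and a share of 7.31%. Without bktRNA2 alone, a setting chosen after seeing the data, the sum was 6.05 RPM. Without bktRNA1 in the total the share was 45.98%. The median loop was 5 nt with G-U pairs or a limit of 36 nt, and 6 nt with a limit of 46 nt. The median correlation over the 10 pairs of libraries was 0.734, and 0.442 with a pseudocount of 0.1 and 0.295 by ranks. By the 6 nt box C, 14 members match. The median stem stayed at 4 pairs under each alternative, a minimum loop of 3 nt (added after seeing the data) included, and the count of 10 folds with the stem held at 25 °C and without lonely pairs. Both permutation tests were paired within library, members against other listed RNAs. No pairing between conditions was possible because the libraries form 1 group. For the 8 members above 0 in 2 libraries, values of 3 to 28 steps limit the precision; whether depth bears on their values at 0 was not tested.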
